A study of Rattus norvegicus with 74 samples.

Results

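The comparison described here set the left ventricle of the heart against the inner red part of the gastrocnemius, a hindlimb muscle, in 7 sedentary rats. Its members are the 14 libraries, of 74 in the whole series, that the labels call LV_Sed and SM_Sed and that carry the same rat numbers (16, 19, 20, 29, 30, 31 and 32). The rats were male wild-type Wistar Kyoto animals killed at 9 weeks of age. They had been housed in pairs with drinking water that held 8% deuterium oxide, and for 4 weeks they were placed on a stationary treadmill while other rats ran. Total RNA of whole tissue was sequenced, so every value is a sum over all cell types of the piece that was cut. Heart libraries were made from 100 ng of RNA with a TruSeq Stranded kit and Ribo-Zero depletion, and muscle libraries from 50 ng with a Zymo-Seq RiboFree kit. Tissue and kit therefore cannot be told apart in any value below.

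Heart and skeletal muscle are both striated muscle, and both contract when calcium released from the sarcoplasmic reticulum binds troponin on the thin filament. They build this machinery largely from different members of the same gene families: a ventricular myocyte uses its own myosin, troponin and ryanodine receptor genes, is coupled to its neighbours at intercalated discs and beats without nerve input, whereas a skeletal fibre contracts only when a motor nerve fires at its endplate. The ventricle works without pause and burns mainly fatty acids and lactate, and a limb muscle can switch to glycogen and anaerobic glycolysis. The paired libraries compare the RNA of heart and limb muscle within each animal.

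The heart libraries held 61518911 to 75758777 counts and the muscle libraries 20876971 to 30788467. Levels are given as CPM, counts scaled to a common library total, with library sizes adjusted by the trimmed mean of M-values (TMM), and 3 counts in a library correspond to 0.0396 to 0.0488 CPM in heart and 0.0974 to 0.144 CPM in muscle. CPM values are not divided by gene length, so they compare tissues for 1 gene and do not rank genes against each other. Defining markers matched the labels: the ventricular myosin gene Myh6 was at 13133 to 18222 CPM (median 14719) in the heart libraries and at 5.09 to 11.1 CPM (median 7.62) in the muscle libraries, and the fast troponin gene Tnni2 was at 2818 to 3793 CPM (median 2983) in muscle and at no more than 0.189 CPM in heart. Slow and fast myosin genes were both present in the muscle pieces, with Myh7 (slow) at 4269 to 12642 CPM (median 10611) and Myh2 (fast oxidative) at 8749.5 to 13754 CPM (median 11027). Myh4 (fast glycolytic) was present as well, at 30200 to 58096 CPM (median 41988). These markers therefore do not show that the pieces were purely oxidative, and their fibre make-up was not measured.

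Some libraries stood apart in genes of other tissues. The heart library of rat 20 held liver transcripts: all 21 hepatocyte genes in the tables were at their highest among the heart libraries there, and their summed level was 2004 CPM against 56.2 to 114 in the other 6. Albumin (Alb) alone was at 1051 CPM there and at no more than 32.6 in the rest. The heart library of rat 19 was highest for 5 of 14 atrial and conduction genes: Myl7, the atrial regulatory light chain, was at 183 CPM against at most 41.5 in the other heart libraries, and Myl4, the atrial essential light chain, was at 59.8 against at most 1.51. In muscle, 13 of 18 matrix genes in rat 20 and likewise 13 of 18 in rat 31 exceeded the other 5 libraries, with summed levels of 14528 and 9340 CPM against 3276 to 5128. Values without these libraries stand beside the results they touch.

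**Figure D1:**
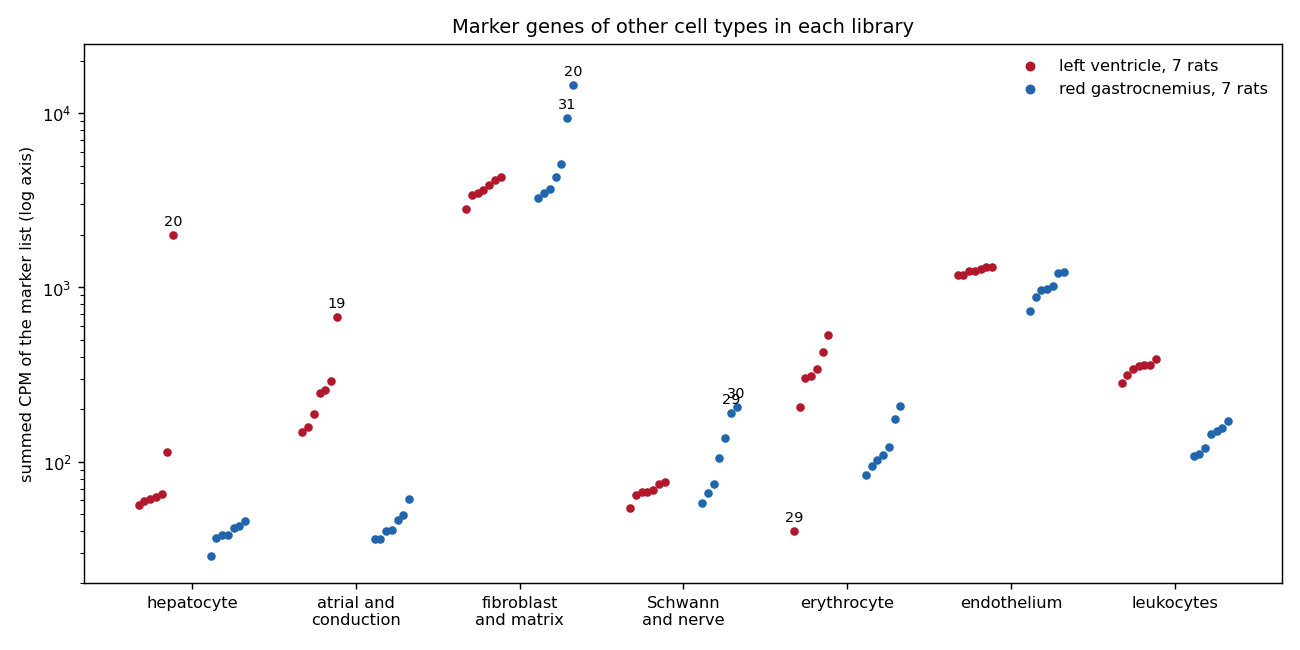
Summed CPM (log axis) of 7 marker lists of other cell types in each of the 14 libraries; each point is 1 library, red for left ventricle and blue for red gastrocnemius, and rats that stand apart are numbered. The hepatocyte sum of rat 20 in heart reached 2004 CPM, and the matrix sums of rats 20 and 31 in muscle reached 14528 and 9340 CPM.

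Most of the transcriptome differed between the tissues. Of 14367 genes tested by edgeR's quasi-likelihood test with rat as a block, 11174 (77.8%) passed an adjusted p of 0.05: 5725 (39.8%) were higher in the left ventricle and 5449 (37.9%) in red gastrocnemius. A difference of at least 2-fold was found for 2315 genes (16.1%) in favour of the heart and for 2616 (18.2%) in favour of muscle, and 715 genes differed by at least 16-fold. For 8053 genes (56.1%) the lowest of 7 values in one tissue lay above the highest of 7 in the other. These shares are the background for every list below, in which a call in either direction is the usual outcome. Log2 fold changes are left ventricle minus red gastrocnemius, and a value after ± is an approximate standard error from the fit. It understates counting error for genes at or near 0 in either tissue. The calcium channel gene Cacng1, with 0 counts in heart, was still given 0.18. Such fold changes are therefore less certain than the printed error. Over all genes tested the fold changes had a median of 0.04. Scaling by library totals in place of TMM moved that median to 0.28 and the split of calls to 7184 higher in heart and 4257 higher in muscle. Leaving out rats 19, 20 and 31 together left 10263 genes called.

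The genes with the largest differences were contractile, electrical and regulatory genes of 1 muscle type that were at or near 0 in the other. On the heart side, Tnni3k, a kinase gene of cardiac myocytes named for its binding to cardiac troponin I, was at 148 to 182 CPM (median 161) and had no count in any muscle library, which makes it at least 1338-fold higher in heart (3 counts per muscle library taken as the floor). By the same reckoning Nppb, the B-type natriuretic peptide gene, was at least 537-fold higher, the orphan receptor gene Gpr22 at least 519-fold, the transcription factor gene Tbx20 at least 403-fold, Lrrc10 at least 348-fold and the potassium channel gene Kcnd2 at least 136-fold. In these 6 genes all 7 muscle libraries were at 0, so the heart and muscle values could not overlap. Of these 6, Tnni3k, Gpr22 and Kcnd2 overlap other RefSeq genes, and how reads shared by overlapping genes were assigned is not given in the sources used here.

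On the muscle side Myh4, the fast glycolytic myosin heavy chain, was at 30200 to 58096 CPM (median 41988) and at no more than 0.0433 CPM in any heart library (log2 fold change -21.75 ± 0.31). Those heart values rest on a few counts, so the error printed for Myh4 is too small. Cacng1, the gamma subunit of the skeletal calcium channel, was at 105 to 147 CPM (median 132) and had no count in heart, at least 3168-fold higher in muscle. Actn3, the alpha-actinin of fast fibres, was at 2744 to 5427 CPM (median 3174) in muscle and at most 0.0793 CPM in heart. A gene listed only under the clone name AABR07005775.1 was among the 8 largest as well, at 9938 to 16904 CPM (median 13794) in muscle and 0.148 to 0.324 CPM (median 0.238) in heart. For all 4 genes the muscle libraries lay above every heart library, in 7 of 7 rats, which the rule that chose these genes required. Their adjusted p was at most 4.3e-12 by edgeR.

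Pairs of genes that do the same task in the 2 muscle types were compared next. Of 24 such pairs (a form listed for heart, called the heart form, and a skeletal form), 22 had both members measured. In 20 of the 22 the heart form was higher in the left ventricle and the skeletal form higher in red gastrocnemius. The pairs were chosen with earlier results of these data known. Some forms listed for heart, such as Eno1, Pgam1, Pygb, Ckb and Rpl3, are not particular to heart. Myh6, the fast ventricular myosin motor, was 1912-fold higher in heart (log2 fold change 10.90 ± 0.17), and its partner Myh4 was the gene with the largest difference of all in the other direction. Cardiac actin (Actc1) was at 3644 to 4449 CPM (median 3918) in the left ventricle and 14.9 to 53.1 CPM (median 32.5) in red gastrocnemius. Skeletal actin (Acta1) was not confined to the limb: it was at 368 to 714 CPM (median 589.8) in the left ventricle and 20424 to 30595 CPM (median 22025) in red gastrocnemius, so the heart libraries held it in every rat at a level 43.4-fold below muscle. The groups did not overlap for either actin, and the 2 genes have nearly identical coding sequences, so how reads were divided between them is uncertain.

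Thin-filament genes followed the same division. Cardiac troponin I (Tnni3), the inhibitory subunit, was at 1520.2 to 2002 CPM (median 1783) in heart and at no more than 0.690 CPM in muscle (log2 fold change 12.57 ± 0.22). Fast troponin I (Tnni2), which lies beside and overlaps other RefSeq genes, gave -15.48 ± 0.32. Cardiac troponin T (Tnnt2), the tropomyosin-binding subunit, gave 9.28 ± 0.18, and fast troponin T (Tnnt3) gave -11.90 ± 0.23. None of these 4 genes exceeded 5.15 CPM in any library of the tissue it is not named for. Troponin C, the calcium sensor, differed from that: Tnnc1, which ventricle and slow fibres share, was at 1162 to 1380.1 CPM (median 1309) in the left ventricle and 165 to 448 CPM (median 289.7) in red gastrocnemius, only 4.65-fold apart, while fast Tnnc2 was at 4143 to 5954 CPM (median 5666) in muscle and at most 0.0866 CPM in heart. The myosin light chains shared by ventricle and slow fibres were the same kind of case: Myl2 was 10.6-fold higher in heart and Myl3 1.94-fold. The adjusted p of these 8 genes was at most 1.7e-06 by edgeR.

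**Figure D2:**
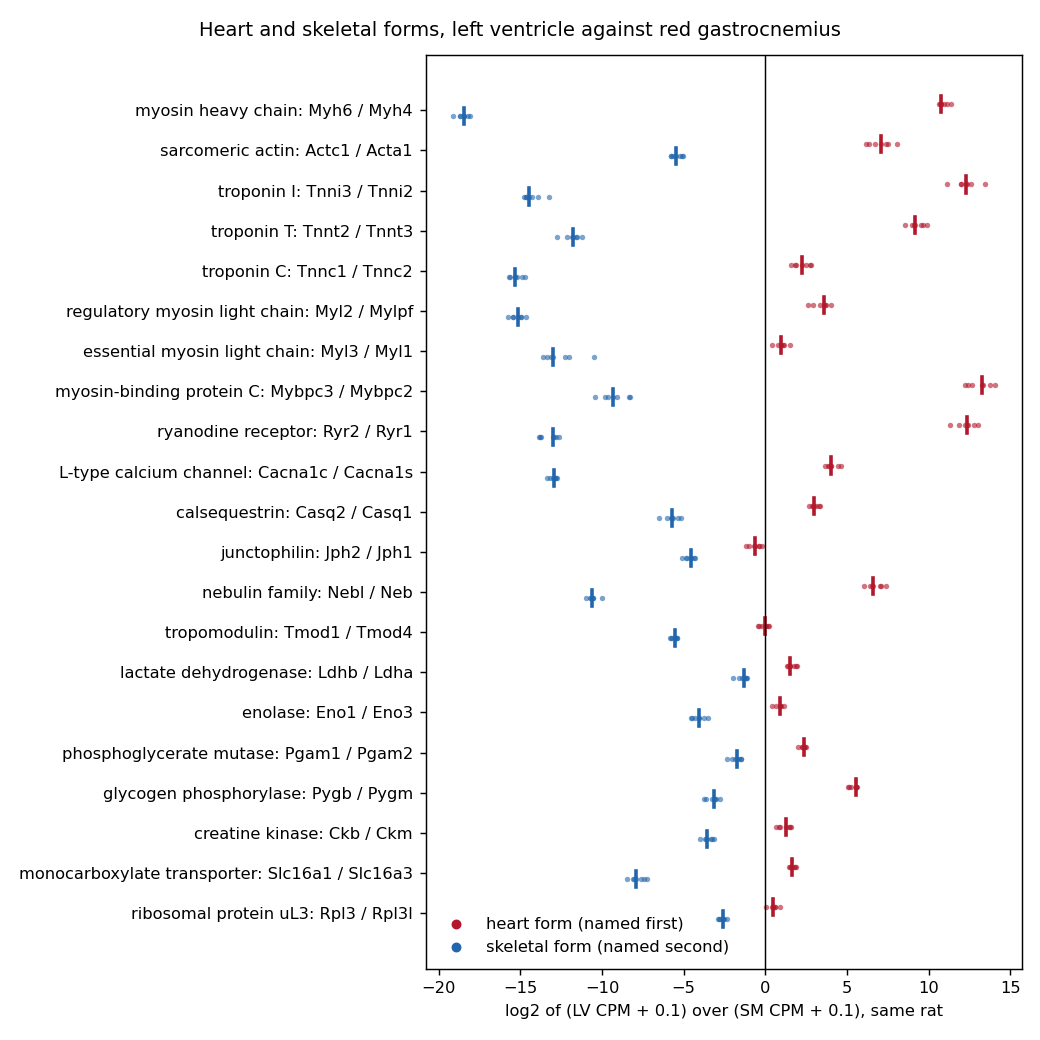
Log2 ratio of left ventricle to red gastrocnemius (CPM with 0.1 added to both) for 21 of the 22 measured pairs; each point is 1 rat, bars are medians over 7 rats, red is the heart form and blue the skeletal form. In all but the junctophilin and tropomodulin pairs every median of the heart form lies right of 0 and every median of the skeletal form left of it.

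The DNA just before the start of Nppa, a natriuretic peptide gene of heart, and of 3 genes of the pairs is shown so that the letters of heart and skeletal promoters can be set beside the values. Each line is the 150 bases before the annotated start, read 5′ to 3′ on the gene's strand, from RefSeq on build GRCr8 (the counts were made on another build). Capitals mark matches on either strand to 6 motifs. The core promoter box was searched as TATAAA. An E-box of the kind that the MyoD family of muscle factors binds was searched as CAGCTG. The M-CAT site of TEAD factors was searched as CATTCC. A site of GATA factors was searched as AGATAA. The remaining motifs, searched by their consensus, are the CArG box of serum response factor and the MEF2 site, and matches of different motifs may overlap. Nppa lies at chr5:163712034-163712183 (plus strand) and Tnni3 at chr1:78342421-78342570 (plus strand), both higher in heart. Acta1 lies at chr19:68784195-68784344 (minus strand) and Myh4 at chr10:52421998-52422147 (plus strand), both skeletal forms of the pairs.
Nppa: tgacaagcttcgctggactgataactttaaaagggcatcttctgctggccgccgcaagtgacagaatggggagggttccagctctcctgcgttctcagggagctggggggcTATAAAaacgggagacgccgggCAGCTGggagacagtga
Tnni3: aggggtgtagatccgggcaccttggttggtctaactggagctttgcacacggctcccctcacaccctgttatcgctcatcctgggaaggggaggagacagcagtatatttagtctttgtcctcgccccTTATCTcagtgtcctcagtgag
Acta1: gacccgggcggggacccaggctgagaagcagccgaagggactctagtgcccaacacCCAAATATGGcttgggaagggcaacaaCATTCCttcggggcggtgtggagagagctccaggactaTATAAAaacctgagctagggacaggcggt
Myh4: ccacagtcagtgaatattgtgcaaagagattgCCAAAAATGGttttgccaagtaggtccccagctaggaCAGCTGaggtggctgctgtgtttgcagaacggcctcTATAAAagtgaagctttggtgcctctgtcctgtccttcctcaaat

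Matches were counted in the 250 bases before the start. CAGCTG stood in 10 of 22 promoters of the skeletal forms and in 3 of 23 promoters of the heart forms, against 12% of all 33469 promoters in the table. Among genes called at least 4-fold higher in muscle it stood in 17.1% of 792 promoters, and among those at least 4-fold higher in heart in 12.6% of 611. CATTCC stood in 8 skeletal and 6 heart promoters of the pairs, in 10.5% and 11% of the promoters of those 4-fold muscle and heart genes, and in 12.1% of all. TATAAA stood in 6 skeletal and 2 heart promoters of the pairs, in 8.84% and 8.84% of the promoters of those 4-fold muscle and heart genes, and in 12.9% of all. AGATAA was present in 1 skeletal and 2 heart promoters of the pairs, in 5.68% and 8.67% of the promoters of those 4-fold muscle and heart genes, and in 10.3% of all. A CArG box was present in 3 skeletal and 2 heart promoters of the pairs, in 1.39% and 1.31% of the promoters of those 4-fold muscle and heart genes, and in 1.5% of all. A MEF2 site was found in 1 skeletal and 2 heart promoters of the pairs, in 1.39% and 0.818% of the promoters of those 4-fold muscle and heart genes, and in 0.523% of all. These are counts of letters, and factor binding was not measured.

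Over whole lists, of 12 tested cardiac contractile genes, 8 were higher in the left ventricle, 3 were higher in red gastrocnemius and 1 did not pass the test (median log2 fold change 3.90, against 0.04 for all genes). Beside Myh6, Tnni3, Tnnt2 and Actc1, the myosin-binding protein Mybpc3 was at 1347 to 1898 CPM (median 1511) in heart and at most 0.212 CPM in muscle. The 3 that were higher in muscle include Tpm1, an alpha-tropomyosin, at 2092 to 2447 CPM (median 2311) in the left ventricle and 5089.6 to 8688 CPM (median 6036) in red gastrocnemius, and Actn2, the alpha-actinin of heart and skeletal Z-discs, 2.8-fold higher in muscle. The uncalled member was Myl4, whose heart value of 59.8 CPM in rat 19 lay above all muscle libraries while the other 6 heart libraries lay below all of them. Without rat 19 the counts of the list were 8 higher in heart and 4 higher in muscle, and DESeq2 on all rats gave 8 and 4 too. Myl7 was higher in heart in every rat (1.14 to 183 CPM (median 22.7) in the left ventricle and 0 to 0.134 CPM (median 0) in red gastrocnemius), and without rat 19 its heart values were at most 41.5 CPM. All 13 tested fast-fibre genes were higher in muscle, with no overlap in any of them and a median of -13.66.

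Slow-fibre genes were called in both directions. Of 9 tested genes, 4 were higher in the left ventricle, 5 were higher in red gastrocnemius and 0 did not pass the test. Slow troponin T (Tnnt1) was at 702 to 1752 CPM (median 1370.5) in muscle and 0.0577 to 0.338 CPM (median 0.224) in heart, and Mybpc1, the slow myosin-binding protein, was at 2844 to 4047 CPM (median 3529) in muscle and at most 1.26 CPM in heart. That highest heart value of Mybpc1 belonged to rat 19, and the other heart libraries were at or below 0.114 CPM. Myh7, the slow myosin that rodent ventricle replaces largely with Myh6 after birth, was at 1430.3 to 3087 CPM (median 2794) in the left ventricle and 4269 to 12642 CPM (median 10611) in red gastrocnemius, so muscle was higher. The summed level of the list varied more among the muscle pieces (10184 to 23186 CPM) than among the ventricles (9428 to 12288).

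The scaffold of the sarcomere was represented more strongly in muscle. Of 24 tested genes, 4 were higher in the left ventricle, 19 were higher in red gastrocnemius and 1 did not pass the test (median -2.59). Neb, nebulin, the ruler of skeletal thin filaments, was at 15529 to 25268 CPM (median 20567) in muscle and 10.7 to 15.3 CPM (median 12.6) in heart, and Myot, the Z-disc protein myotilin, was 520.0-fold higher in muscle. Nebl, nebulette, the short cardiac relative of nebulin, ran the other way at 208 to 257 CPM (median 215) in the left ventricle and 1.44 to 3.13 CPM (median 2.2) in red gastrocnemius. Fhl2, a LIM-domain protein of the cardiac sarcomere, was 121-fold higher in heart. Tmod1, the cap of the thin filament's pointed end, did not pass the test (116 to 143 CPM (median 126) in the left ventricle and 113 to 161 CPM (median 139) in red gastrocnemius, adjusted p = 0.295 by edgeR) and its groups overlapped, while its skeletal relative Tmod4 was 49-fold higher in muscle.

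Calcium handling was split by isoform in the same way, and most of the remaining members were higher in muscle. Of 24 tested genes, 6 were higher in the left ventricle, 18 were higher in red gastrocnemius and 0 did not pass the test (median -3.23). The release channel of cardiac sarcoplasmic reticulum, Ryr2, was at 2773 to 3964 CPM (median 3034) in heart and 0.291 to 1.07 CPM (median 0.531) in muscle, and that of skeletal muscle, Ryr1, was at 4139 to 7349 CPM (median 5388) in muscle and 0.284 to 0.727 CPM (median 0.448) in heart. Neither gene's groups came near each other in any rat. The voltage sensor Cacna1s, the skeletal L-type channel, was at 693 to 1068 CPM (median 835) in muscle with only a few counts in heart, a ratio of 152180-fold (95% counting interval 52072 to 737940). Its cardiac counterpart Cacna1c was 16.8-fold higher in heart, and the sodium-calcium exchanger Slc8a1, which removes calcium from the cardiac myocyte after each beat, was at 318 to 402 CPM (median 364) in the left ventricle and 17.2 to 23.3 CPM (median 21) in red gastrocnemius.

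Genes of calcium storage and reuptake were less exclusive. Casq2, cardiac calsequestrin, was at 513 to 648 CPM (median 562) in the left ventricle and 51.4 to 84.7 CPM (median 78.8) in red gastrocnemius, and Casq1, its fast-fibre form, at 20.3 to 33 CPM (median 25.2) in the left ventricle and 1184 to 1849 CPM (median 1341) in red gastrocnemius. Atp2a2, the calcium pump SERCA2 of heart and slow fibres, was 3.21-fold higher in heart and present in every muscle library at 1198 CPM or more. Jph2, the junctophilin that ties cardiac plasma membrane to the sarcoplasmic reticulum, was at 254 to 352 CPM (median 285) in the left ventricle and 325 to 641 CPM (median 471) in red gastrocnemius, a small difference in favour of muscle with overlapping groups (log2 fold change -0.66 ± 0.11, adjusted p = 6.1e-05, edgeR). Skeletal Jph1 was 25.6-fold higher in muscle. Mrln, the gene of myoregulin, a micropeptide that inhibits the skeletal pump, was at 8.95 to 17.4 CPM (median 11.9) in muscle and had counts in 1 heart library, a ratio of 3214-fold (95% counting interval 889 to 26556). Sarcolipin (Sln) was at 0 to 4.52 CPM (median 0.398) in the left ventricle and 1.6 to 19.7 CPM (median 5.7) in red gastrocnemius, and its heart maximum belonged to rat 19, with the other heart libraries at or below 0.578 CPM.

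Among ion channels and gap junctions the counts in the 2 directions were closer, as they were over all genes. The shares were 50% higher in heart and 40% higher in muscle, against 39.8% and 37.9% of all genes. Of 30 tested genes, 15 were higher in the left ventricle, 12 were higher in red gastrocnemius and 3 did not pass the test (median 0.34). Scn4a, the sodium channel of the skeletal action potential, was at 0.852 to 2.3 CPM (median 1.04) in the left ventricle and 299 to 455 CPM (median 341) in red gastrocnemius. Kcnj5, a subunit of the acetylcholine-gated potassium channel, was at 25.6 to 38.1 CPM (median 29) in heart with 3 counts over all muscle libraries, a ratio of 1737-fold (95% counting interval 594 to 8423). Kcnc1 was 213-fold higher in muscle. Abcc9, the sulfonylurea receptor of cardiac and vascular potassium channels, was at 201 to 249 CPM (median 213) in the left ventricle and 181 to 212 CPM (median 206) in red gastrocnemius and did not pass (adjusted p = 0.147, edgeR).

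Of 12 tested genes of the intercalated disc, 7 were higher in the left ventricle, 4 were higher in red gastrocnemius and 1 did not pass the test. Dsp, desmoplakin, which anchors desmosomes to desmin filaments, was at 1395 to 1610.3 CPM (median 1479) in the left ventricle and 5.6 to 11.4 CPM (median 7.59) in red gastrocnemius. Dsg2, a desmosomal cadherin, was at 50.3 to 57.3 CPM (median 54.1) in heart and at most 0.0727 CPM in muscle. Both desmosomal genes were therefore separated completely, while disc genes that also serve sarcomeres ran the other way: Nexn, an actin-binding protein of Z-discs, was 6.28-fold higher in muscle and Xirp2 4.23-fold. Tjp1, a tight-junction scaffold present in many cell types, was at 64.6 to 77.7 CPM (median 69.8) in the left ventricle and 60.4 to 81 CPM (median 73.6) in red gastrocnemius and did not pass (adjusted p = 0.689, edgeR).

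Of 15 tested factors of the heart programme, 13 were higher in the left ventricle, 2 were higher in red gastrocnemius and 0 did not pass the test (median 3.11). Nkx2-5, the homeobox factor of the heart field, was at 12.6 to 18.2 CPM (median 15.2) in heart and without a count in muscle, at least 123-fold higher, and Tbx20 was at 42.6 to 59.1 CPM (median 50.5) and likewise without a count in muscle. The 2 exceptions were Mef2c, a factor of both striated lineages, at 26.2 to 40.8 CPM (median 32.2) in the left ventricle and 168 to 235 CPM (median 202) in red gastrocnemius, and Smyd1, a muscle methyltransferase, 3.49-fold higher in muscle. Groups did not overlap in any of the 15.

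Of 14 tested skeletal myogenic factors, 0 were higher in the left ventricle, 13 were higher in red gastrocnemius and 1 did not pass the test (median -6.54, or -5.29 with genes at 0 in heart set to their bound). Myod1, which commits cells to skeletal muscle, was at 17 to 36.8 CPM (median 24.5) in muscle and without a count in heart, at least 687-fold higher. Myog, which drives fibre differentiation, was at 20.1 to 31.8 CPM (median 23.5) in muscle with 1 count in 1 heart library, a ratio of 13110-fold (95% counting interval 2352 to 517930). Mef2a, which both lineages use, was the uncalled member, at 63.3 to 76.7 CPM (median 66) in the left ventricle and 60.3 to 73.2 CPM (median 63.9) in red gastrocnemius. Genes of body position were mostly higher in the limb muscle: of 23 tested genes, 2 were higher in the left ventricle, 21 were higher in red gastrocnemius and 0 did not pass the test (median -6.80, or -6.31 with bounds). Lbx1, a homeobox gene of migrating limb muscle precursors, was at 23.2 to 39.5 CPM (median 27.1) in muscle and at least 712-fold higher, and Hoxc10, a posterior Hox gene, was at 16.8 to 25.7 CPM (median 22.9) and at least 542-fold higher. Fewer cells of a type and less RNA per cell cannot be told apart in bulk samples such as these, here or in any list below.

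Among natriuretic peptides and load genes, of 15 tested members, 7 were higher in the left ventricle, 6 were higher in red gastrocnemius and 2 did not pass the test. Nppa, the atrial peptide gene, was at 17.2 to 299 CPM (median 83.2) in heart, with 299 CPM in rat 19 and at most 132 elsewhere, and had counts in 1 muscle library, a ratio of 8785-fold (95% counting interval 2432 to 72539). Nppb spread over a range of 28.3 to 121 CPM (median 48.2) among the ventricles. Of the ankyrin-repeat stretch genes, Ankrd2 was at 163 to 339 CPM (median 213) in muscle against 0.0946 to 0.325 CPM (median 0.204) in heart, and Ankrd23 was 59.7-fold higher in muscle. Npr1, the receptor for Nppa and Nppb, was at 15.9 to 18.2 CPM (median 16.9) in the left ventricle and 14 to 21.9 CPM (median 19.1) in red gastrocnemius and did not pass (adjusted p = 0.528, edgeR).

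Of 23 tested autonomic receptor and cAMP genes, 13 were higher in the left ventricle, 8 were higher in red gastrocnemius and 2 did not pass the test. Chrm2, the muscarinic receptor through which the vagus slows the heart, was at 163 to 206 CPM (median 176) in heart and found in only 1 muscle library, at 0.218 CPM. Adra1b, an alpha-adrenergic receptor, was at 21.9 to 27.1 CPM (median 24) in heart and at most 0.141 CPM in muscle. The adenylate cyclase gene Adcy9 ran the other way and was 3.6-fold higher in muscle. Of 14 tested motor endplate genes, 2 were higher in the left ventricle, 11 were higher in red gastrocnemius and 1 did not pass the test, and 3 and 8 were called with library totals. The acetylcholine receptor subunits Chrna1 and Chrnb1 were 19.6-fold and 81.2-fold higher in muscle, with no overlap. Lrp4, the agrin receptor, was at 25.3 to 34.6 CPM (median 27.6) in the left ventricle and 22.3 to 33.5 CPM (median 29.4) in red gastrocnemius and did not pass (adjusted p = 0.699, edgeR). The 2 members higher in heart, Prkar1a, a regulatory subunit of protein kinase A, and utrophin (Utrn), are expressed well beyond the endplate.

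**Figure D3:**
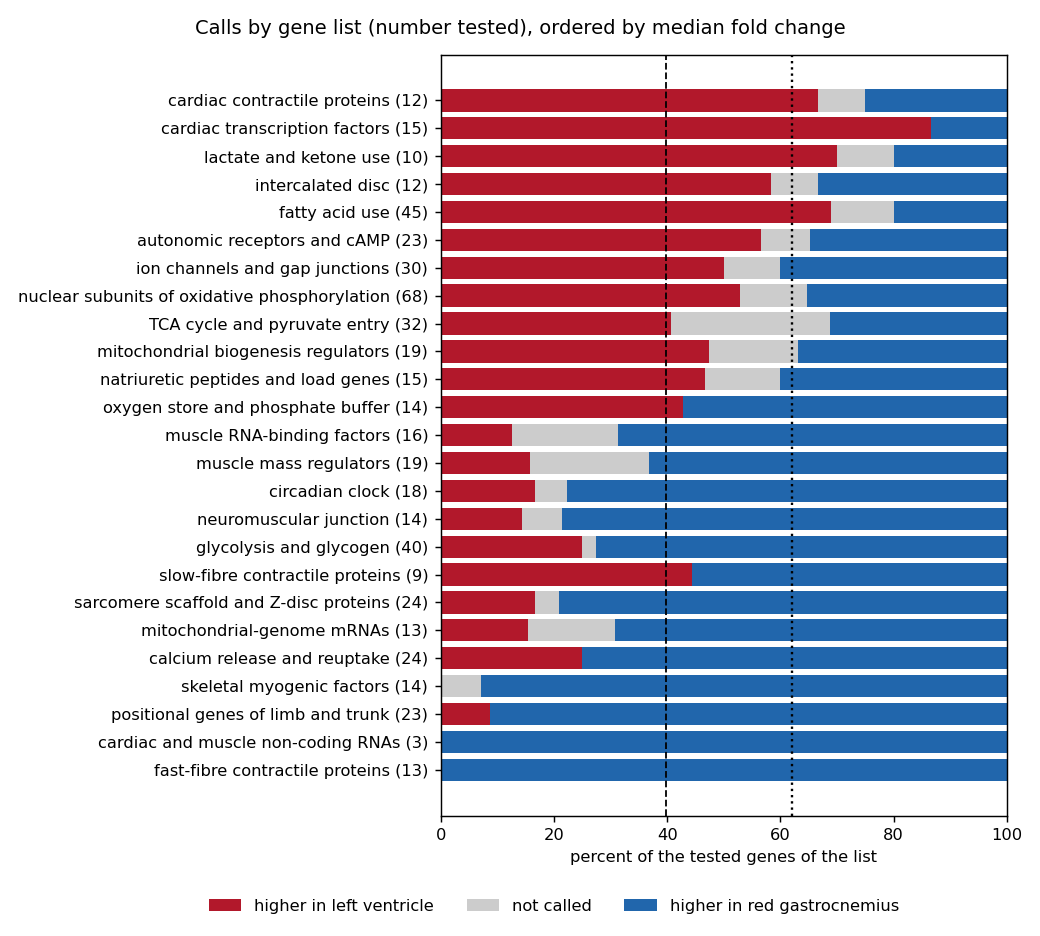
Share of tested genes in each of 25 lists that were higher in left ventricle (red), not called (grey) or higher in red gastrocnemius (blue), with the number tested in parentheses, ordered by median fold change. The dashed and dotted lines mark where red would end (39.8%) and blue would begin if a list followed all genes, of which 37.9% were higher in muscle.

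Fuel genes differed in number of calls and in isoform. Of 40 tested glycolysis and glycogen genes, 10 were higher in the left ventricle, 29 were higher in red gastrocnemius and 1 did not pass the test (median -1.35), so 72.5% were higher in muscle against 37.9% of all genes. Pygm, the muscle glycogen phosphorylase, was at 375 to 513 CPM (median 433) in the left ventricle and 3472 to 5125 CPM (median 3868) in red gastrocnemius, and Eno3, muscle enolase, was 17.3-fold higher in muscle. Pfkfb1, which makes the activator of phosphofructokinase, was at 40.3 to 54.5 CPM (median 50.6) in muscle and 0.251 to 0.988 CPM (median 0.404) in heart. In heart the brain-type phosphorylase Pygb was 41.9-fold higher than in muscle, at 239 to 281 CPM (median 265) in the left ventricle and 5.31 to 7.47 CPM (median 6.05) in red gastrocnemius, and the non-muscle forms Eno1 and Pgam1 were 1.78-fold and 4.94-fold higher. The gene listed as Aldoa, aldolase A, was at 88.8 to 115 CPM (median 101) in the left ventricle and 1.49 to 3.54 CPM (median 2.61) in red gastrocnemius; the symbol stands for more than 1 row of the tables and the gene overlaps another, so that value is uncertain.

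Lactate and ketone genes differed by form. Ldha, the lactate dehydrogenase subunit that favours lactate formation, was at 359 to 485 CPM (median 391) in the left ventricle and 957 to 1401 CPM (median 1056) in red gastrocnemius, and Ldhb, which favours pyruvate, at 652 to 965 CPM (median 804) in the left ventricle and 176 to 324 CPM (median 283) in red gastrocnemius. Slc16a3, the lactate exporter MCT4 of glycolytic fibres, was at 0.561 to 1.22 CPM (median 0.988) in the left ventricle and 183 to 299 CPM (median 220.1) in red gastrocnemius. Slc16a1, the carrier MCT1 used for uptake, was 3.15-fold higher in heart, and Bdh1, an enzyme of ketone oxidation, 3.88-fold. Groups were apart for each of these 5 genes, as for 56.1% of all genes tested, with adjusted p of at most 1.7e-08 by edgeR. The 5 were named by the rules for the largest calls and for the pairs. In all, of 10 tested lactate and ketone genes, 7 were higher in the left ventricle, 2 were higher in red gastrocnemius and 1 did not pass the test.

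Of 14 tested myoglobin, creatine kinase and adenylate genes, 6 were higher in the left ventricle, 8 were higher in red gastrocnemius and 0 did not pass the test. Ckm, muscle creatine kinase, was at 739 to 959 CPM (median 842) in the left ventricle and 8080.5 to 12562 CPM (median 9260.3) in red gastrocnemius, and the brain form Ckb was 2.22-fold higher in heart. The AMP deaminases split by gene: Ampd1 was at 340 to 485 CPM (median 409) in muscle and 0.467 to 1.22 CPM (median 0.825) in heart, and Ampd3 was 2.59-fold higher in heart. Ak4, a mitochondrial adenylate kinase, was at 34.9 to 53 CPM (median 41.6) in the left ventricle and 0.671 to 2.11 CPM (median 1.22) in red gastrocnemius. Of 45 tested fatty acid genes, 31 were higher in the left ventricle, 9 were higher in red gastrocnemius and 5 did not pass the test (median 0.85), so 68.9% were higher in heart against 39.8% of all genes. With library totals 33 and 5 were called, and with all 15 sedentary muscle libraries, unpaired, 30 and 5. Lpl, lipoprotein lipase, which frees fatty acids from circulating triglyceride, was at 1501 to 2037 CPM (median 1821) in the left ventricle and 234 to 391 CPM (median 325) in red gastrocnemius. The members higher in muscle include Acsl6, an acyl-CoA synthetase, 7.86-fold, and Ucp3, an uncoupling protein, at 12.4 to 18 CPM (median 15.1) in the left ventricle and 29.8 to 149.8 CPM (median 53.4) in red gastrocnemius, where the highest muscle value belonged to rat 16. Etfb, a subunit of the electron carrier for beta-oxidation, was at 30.1 to 37.9 CPM (median 31.9) in the left ventricle and 0.493 to 1.19 CPM (median 1.01) in red gastrocnemius, a difference that should be read as uncertain, since oxidative tissues in general use this gene.

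Mitochondrial genes of the nucleus were spread over both tissues. Of 68 tested nuclear subunits of oxidative phosphorylation, 36 were higher in the left ventricle, 24 were higher in red gastrocnemius and 8 did not pass the test (median 0.29). Cox6a2, the heart and muscle form of a cytochrome oxidase subunit, was 3.18-fold higher in heart and Atp5mc3, a c-ring subunit of ATP synthase, 2.48-fold, while Atp5pf, another ATP synthase subunit, was at 26.9 to 36 CPM (median 31.5) in the left ventricle and 181 to 282 CPM (median 241) in red gastrocnemius. Atp5pf overlaps Gabpa. Atp5me, an ATP synthase subunit that every cell with mitochondria uses, was at 66.3 to 86 CPM (median 71.6) in muscle and only 0.0135 to 0.217 CPM (median 0.141) in heart, a difference that should be read as uncertain. Cox4i1, a cytochrome oxidase subunit, did not pass (adjusted p = 0.209, edgeR), at 451 to 579 CPM (median 526) in the left ventricle and 408 to 559.8 CPM (median 473) in red gastrocnemius. Of 32 tested citrate cycle and pyruvate genes, 13 were higher in the left ventricle, 10 were higher in red gastrocnemius and 9 did not pass the test (median 0.07). Scaling by library totals changed these counts to 21 and 6, and those of the respiratory subunits to 41 and 18. The malate dehydrogenase gene Mdh1 was 2.4-fold higher in heart and the oxoglutarate dehydrogenase gene Ogdh 2.94-fold higher in muscle.

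Transcripts of mitochondrial DNA took a larger share of the counts in heart. They made up 45.6 ± 2.65% (SD, n = 7) of all counts in left ventricle and 32.1 ± 2.95% in red gastrocnemius, higher in 7 of 7 rats (two-sided exact sign-flip permutation p = 0.0156 and adjusted p over 4 measures 0.0156, the smallest that 7 pairs allow). Most of this was ribosomal RNA, at 40.2 ± 2.53% and 25 ± 2.67% of counts, and the kits that deplete such RNA differed. The row AY172581.24 (mitochondrial rRNA) held 34.1 ± 2.52% of counts in heart and 12.3 ± 1.46% in muscle, and the other rRNA row, AY172581.9, held 6.03 ± 0.261% and 12.7 ± 1.33%. The ratio of the 2 rRNA rows was thus 5.31 to 6.74 in heart and 0.896 to 1.08 in muscle.

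The 13 mRNAs of mitochondrial DNA, which encode core subunits of the respiratory chain and ATP synthase, made up 5.48 ± 0.286% of counts in heart and 7.09 ± 1.24% in muscle, lower in heart in 7 of 7 rats (exact sign-flip p = 0.0156). With rRNA of the mitochondrion left out of the total they made up 9.17 ± 0.726% and 9.47 ± 1.71%, higher in heart in 4 of 7 rats. The mRNAs did not move together: 2 of 13 were higher in heart, 9 higher in muscle and 2 not called. Mt-co1, the catalytic subunit of cytochrome oxidase, was at 33972 to 43448 CPM (median 37513) in the left ventricle and 25757 to 38533 CPM (median 29771) in red gastrocnemius, with overlapping groups (log2 fold change 0.29 ± 0.11), and its call was lost without rat 16, 19 or 32. Mt-co2, another subunit of that enzyme, gave 0.34 ± 0.12, and 0.25 with no call without rat 19. Mt-nd2, a subunit of complex I, was at 91.6 to 229.8 CPM (median 130.3) in the left ventricle and 3679 to 7075 CPM (median 4751) in red gastrocnemius. Mt-nd6, the 1 mRNA on the light strand, was at 20.9 to 46.1 CPM (median 41.9) in the left ventricle and 1644 to 2503 CPM (median 1921) in red gastrocnemius. Mt-nd4l, which overlaps Mt-nd4, was 38.2-fold higher in muscle. All but Mt-nd6 are cut from 1 long precursor, and the part of kit and of read assignment in these unequal ratios was not tested.

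**Figure D4:**
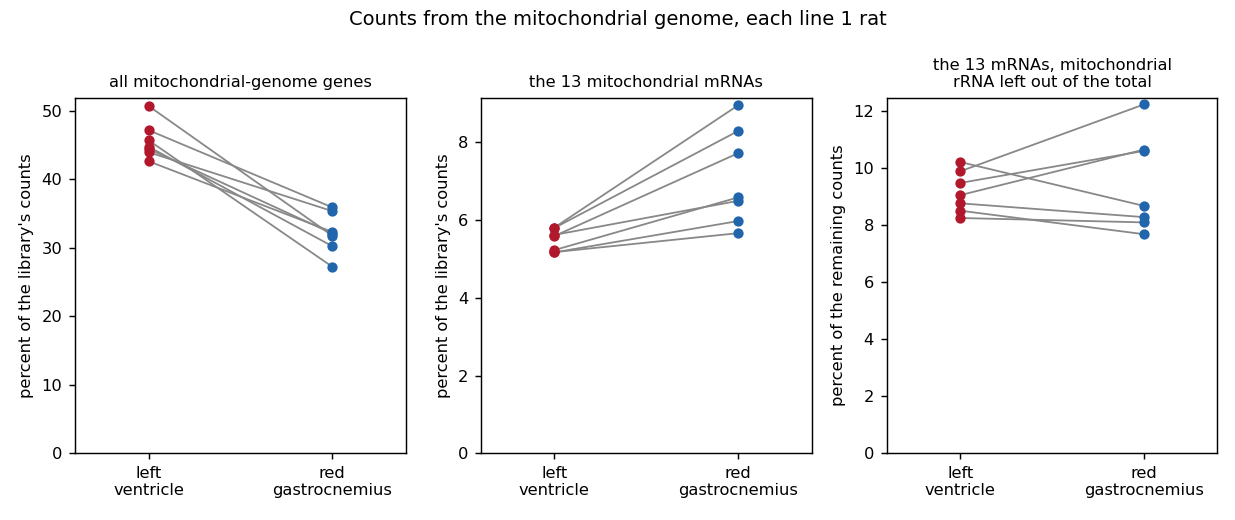
Percent of counts from the mitochondrial genome in left ventricle and red gastrocnemius, 1 line per rat: all genes (left), the 13 mRNAs (middle), and the 13 mRNAs with mitochondrial rRNA left out of the total (right). The share over all genes is 45.6% in heart and 32.1% in muscle on average, and in the right panel the lines run in both directions.

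Regulators of mitochondrial content were split much as all genes were. Of 19 tested genes, 9 were higher in the left ventricle, 7 were higher in red gastrocnemius and 3 did not pass the test (median 0.00, or 0.24 with scaling by library totals). The shares were 47.4% and 36.8%, against 39.8% and 37.9% of all genes. The estrogen-related receptors differed by member, with Esrra 1.67-fold and Esrrb 5-fold higher in heart and Esrrg 2.75-fold higher in muscle. Of 19 tested muscle mass regulators, 3 were higher in the left ventricle, 12 were higher in red gastrocnemius and 4 did not pass the test, and 6 and 11 were called with library totals. Mstn, myostatin, the brake on muscle growth, was at 0.406 to 0.738 CPM (median 0.491) in the left ventricle and 2.75 to 8.86 CPM (median 5.41) in red gastrocnemius, and Ddit4, an inhibitor of mTORC1, was 6.8-fold higher in muscle. Trim55, a titin-linked ubiquitin ligase, was 1.86-fold higher in heart. Fbxo32, the atrophy ligase atrogin-1, did not pass (adjusted p = 0.863, edgeR): it was at 76.8 to 115 CPM (median 93.7) in the left ventricle and 73.3 to 149 CPM (median 97.8) in red gastrocnemius, and the highest muscle value belonged to rat 16, which also had the highest Ucp3.

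Of 16 tested RNA-binding factors, 2 were higher in the left ventricle, 11 were higher in red gastrocnemius and 3 did not pass the test, and 4 and 9 were called with library totals. Rbfox1, a splicing factor, was at 22.6 to 35.2 CPM (median 25.3) in the left ventricle and 104 to 143 CPM (median 125) in red gastrocnemius, and Rbm20, the titin splicing factor, at 134 to 175 CPM (median 145) in the left ventricle and 70.4 to 106 CPM (median 81.2) in red gastrocnemius. In the ribosomal pair, Rpl3 was 1.41-fold higher in heart with overlapping groups, and Rpl3l, its striated-muscle paralog, 6.34-fold higher in muscle. H19, an imprinted non-coding RNA, was at 1479 to 2690.5 CPM (median 1964) in muscle and 0.862 to 9.72 CPM (median 2.62) in heart. The short genes Mir133b, Mir206 and Mir208b were at 0 in all heart libraries. Of 444 microRNA genes, 5 had any count in heart and 201 in muscle, and 22 mitochondrial tRNA genes had none in heart and 17 with counts in muscle, so zeros of short genes in heart are not read as absence.

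Clock genes added a comparison between rats. The clock is a feedback loop in which Arntl (Bmal1) with Clock or Npas2 switches on the Per, Cry and Nr1d genes, which then shut it down. Of 18 tested genes, 3 were higher in the left ventricle, 14 were higher in red gastrocnemius and 1 did not pass the test (median -0.78). Nr1d1, the repressor Rev-erb alpha, was at 2.03 to 13.3 CPM (median 7.39) in the left ventricle and 19.7 to 71.7 CPM (median 50.4) in red gastrocnemius, although it overlaps Thra, and Hlf, an output factor, was 8.26-fold higher in muscle. Arntl itself was nearly level, at 20.1 to 42 CPM (median 38) in the left ventricle and 19.9 to 38.2 CPM (median 34.4) in red gastrocnemius (log2 fold change 0.14 ± 0.062, adjusted p = 0.0444, edgeR), and that call was lost with RLE scaling, with DESeq2, without the block for the rat and without any 1 of rats 16, 19, 20, 30 and 31. Without the block Npas2 (-0.47), Per1 (-0.54) and Per2 (-0.68) did not pass either, and with scaling by library totals Per1 (-0.22) did not pass. In place of 3 clock genes, 2 were higher in heart with libraries thinned to the smallest total and with all 15 sedentary muscle libraries, unpaired. The same number, 2, was left with rats 19, 20 and 31 left out together.

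Several clock genes varied between rats in the same way in both tissues. Npas2 ranged over 3.41 to 11.3 CPM (median 9.55) in heart and 4.97 to 16.8 CPM (median 12.4) in muscle, and rat 29 was lowest in both. Per2 was highest in rat 29, at 28.9 CPM in heart and 39.7 in muscle. Per1 was highest in rat 16, at 22.4 and 37 CPM. The 2 tissues of those rats thus stood at the same end of the range. Across the 7 rats Pearson's r between heart and muscle log2 levels was 0.98 for Npas2 (Spearman's rho 0.93), 0.95 for Arntl (rho 0.61), 0.92 for Per1 (rho 0.79) and 0.92 for Per2 (rho 0.75), with a median of 0.64 over the 18 genes and 0.022 over all genes tested (middle 50% from -0.278 to 0.325). These are descriptions over 7 points, each of which is 1 animal.

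Without the 2 rats farthest from the heart median, r was 0.84 for Npas2, 0.78 for Per1, 0.52 for Per2 and 0.21 for Arntl, and the median over the list was 0.47. Without rat 29 the median was 0.419 and r was 0.19 for Clock and 0.15 for Nr1d1. Bhlhe40, an activity-responsive repressor of the loop, gave -0.21 over all 7 rats, and Dbp, an output factor, gave 0.13.

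**Figure D5:**
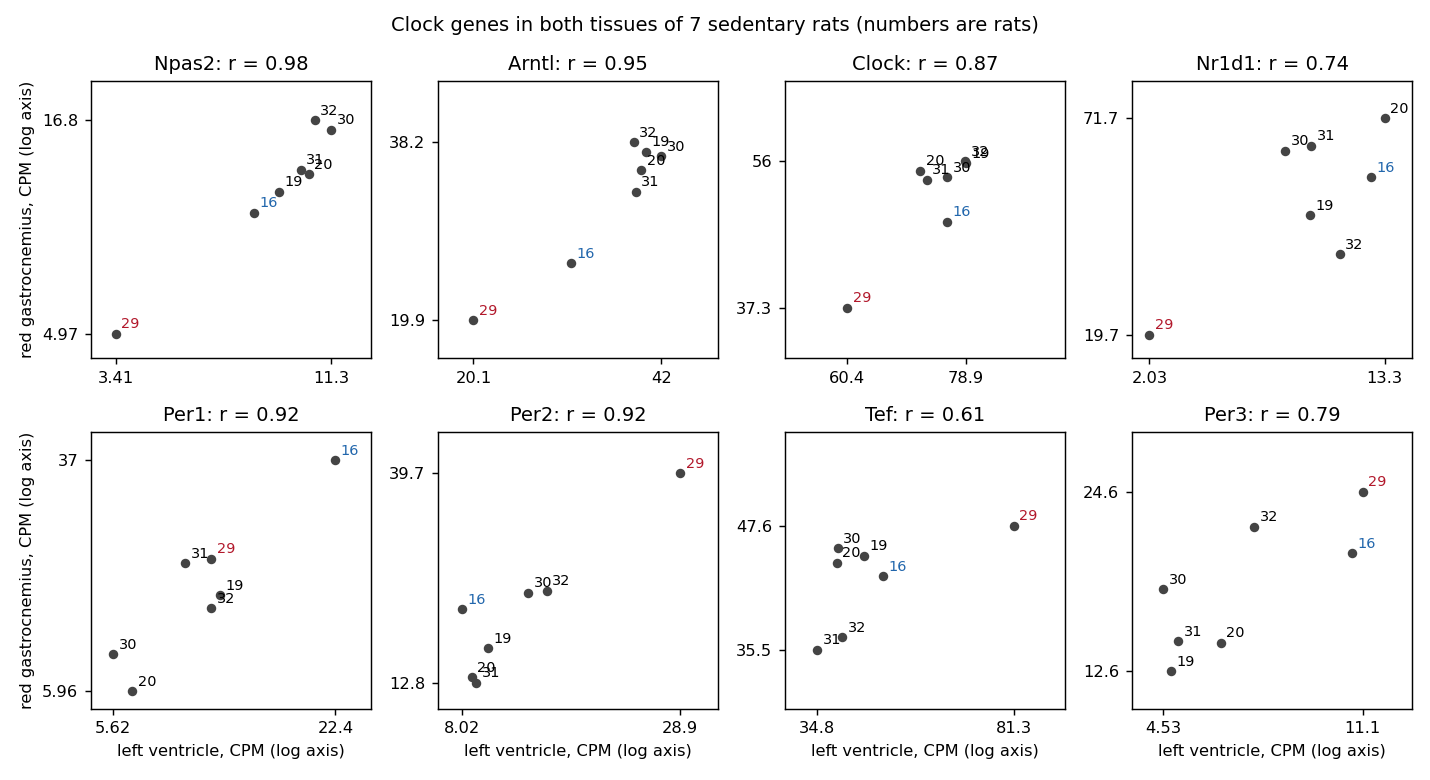
Levels of 8 clock genes in left ventricle (horizontal, log axis) and red gastrocnemius (vertical, log axis), in CPM, for 7 rats given by number; r is Pearson's correlation of log2 levels. Rat 29 (red) is at the low end of both axes for Npas2, Arntl, Clock and Nr1d1 and at the high end for Per2, and rat 16 (blue) is at the high end for Per1.

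Calls among markers of the other cells in each piece are to be set against all genes, 39.8% higher in heart and 37.9% higher in muscle. Of 14 tested leukocyte genes, 11 were higher in the left ventricle, 0 were higher in red gastrocnemius and 3 did not pass the test (7 and 0 were called without rats 19, 20 and 31), with summed levels of 282 to 389 CPM in heart and 108 to 172 in muscle. Cd74, the chaperone of MHC class II, was at 137 to 161 CPM (median 150.1) in the left ventricle and 19.2 to 40 CPM (median 27.7) in red gastrocnemius, and Cd163, a scavenger receptor of resident macrophages, did not pass, at 8 to 19.3 CPM (median 14.7) in the left ventricle and 8.33 to 18.3 CPM (median 15.3) in red gastrocnemius. Of 19 tested endothelial genes, 9 were higher in the left ventricle, 3 were higher in red gastrocnemius and 7 did not pass the test: Pecam1 was 1.91-fold and Emcn 1.84-fold higher in heart, and the factors Sox17 and Sox18 were 2.66-fold and 1.94-fold higher in muscle. The growth factor receptor Kdr was at 76.4 to 103 CPM (median 89.4) in the left ventricle and 58.7 to 111 CPM (median 85.6) in red gastrocnemius and did not pass (adjusted p = 0.315, edgeR). Of 10 tested mural cell genes, 4 were higher in the left ventricle, 4 were higher in red gastrocnemius and 2 did not pass the test. Both shares (40%) were near those of all genes. Acta2, smooth muscle actin, was one of those higher in muscle, at 5.97 to 19.2 CPM (median 9.73) in the left ventricle and 27.8 to 61.9 CPM (median 47.9) in red gastrocnemius.

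Matrix genes were mixed: of 18 tested genes, 8 were higher in the left ventricle, 5 were higher in red gastrocnemius and 5 did not pass the test, and without rats 19, 20 and 31 the counts were 5 and 6. Pdgfra, a receptor of fibroblasts, was at 69.3 to 129 CPM (median 109) in the left ventricle and 21.4 to 35.7 CPM (median 28.7) in red gastrocnemius, and Fbln1, fibulin, 10.3-fold higher in heart. Col1a1 was at 141 to 231 CPM (median 178) in the left ventricle and 608 to 6619.6 CPM (median 970.5) in red gastrocnemius; its 2 highest muscle values were those of rats 20 and 31, and it overlaps Sgca. Its partner chain Col1a2 did not pass (361 to 527 CPM (median 457) in the left ventricle and 495 to 4595 CPM (median 649) in red gastrocnemius, adjusted p = 0.0586, edgeR), but it did so with DESeq2, without the block for the rat (log2 fold change -1.71) and with rats 19, 20 and 31 left out (-0.58), each time higher in muscle. Wt1, a factor of the epicardium, was at 5.52 to 7.62 CPM (median 6.26) in heart with no count in muscle, at least 52.6-fold higher.

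Liver, blood and fat genes were tested with the same call rule. Of 5 tested hepatocyte genes, 3 were higher in the left ventricle, 1 was higher in red gastrocnemius and 1 did not pass the test, and without rat 20 the counts were 4 and 1. Ttr, transthyretin, was at 3.92 to 7.52 CPM in the heart of rats other than rat 20 and at most 0.109 CPM in muscle, so the groups stayed apart without that library. Tf, transferrin, did not pass (adjusted p = 0.0671, edgeR), although every heart library lay above every muscle library (47.2 to 412 CPM (median 52.6) in the left ventricle and 25.6 to 41.9 CPM (median 35) in red gastrocnemius), and it was called without rat 20, at a log2 fold change of 0.58. Of 5 tested red cell genes, 1 was higher in the left ventricle, 0 were higher in red gastrocnemius and 4 did not pass the test, and that 1 call (Hbb-b1, adjusted p = 0.0454, edgeR) was lost without any 1 of rats 16, 19, 20, 30, 31 and 32, while without rat 29 all 5 were called higher in heart. Without rat 29, 5 of the 5 were higher in heart. The red cell sum was lowest in the heart of rat 29, at 40.1 CPM against 207 to 537 in the other hearts. Of 11 tested atrial and conduction genes, 6 were higher in the left ventricle, 4 were higher in red gastrocnemius and 1 did not pass the test, 5 and 5 without rat 19. Of 10 tested nerve genes, 2 were higher in the left ventricle, 5 were higher in red gastrocnemius and 3 did not pass the test, and 4 and 4 were called with library totals and 4 and 5 without rat 16. Of 3 tested fat cell genes, 1 was higher in the left ventricle, 1 was higher in red gastrocnemius and 1 did not pass the test, with Cidea at 26.5 to 36.6 CPM (median 32.4) in the left ventricle and 2.11 to 5.52 CPM (median 3.7) in red gastrocnemius. The part of these cells in the differences of other genes was not tested.

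The number and kind of expressed genes differed as well. With every library thinned to 14242623 counts of nuclear genes, 13485 ± 207 genes (SD, n = 7) had at least 10 counts in heart and 13107 ± 101 in muscle, higher in heart in 7 of 7 rats (exact sign-flip p = 0.0156). The mean difference of 378 genes fell to 220 with the 10 most abundant genes left out (exact sign-flip p = 0.0312), where rat 32 had 13168 in heart and 13178 in muscle. With at least 3 counts in place of 10 it was 98.1 genes and did not pass (exact sign-flip p = 0.422). The heart library with the most such genes was that of rat 20, at 13918. Long non-coding RNAs made up 0.916 ± 0.0193% of nuclear counts in heart and 0.621 ± 0.0263% in muscle, again in 7 of 7 rats (exact sign-flip p = 0.0156). The 10 highest genes took 21.3 ± 0.965% of nuclear counts in heart and 32.1 ± 2.92% in muscle.

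The same contrast could be read in other animals, since 7 trained rats (14, 17, 18, 25, 26, 27 and 28) gave both tissues and share no library with the sedentary rats. In them 11224 of 14338 genes (78.3%) were called by edgeR, 39.2% higher in heart and 39% higher in muscle. Among 14187 genes that entered both fits, 10323 passed with matching direction, which is 93.3% of the sedentary calls and 92.9% of the trained ones, and 0 were called in opposite directions. Myh6 gave a log2 fold change of 10.94 in the trained rats, Myh4 -20.07, Ryr2 12.22, Slc16a3 -7.97 and Lpl 2.57. The background for lists of tested genes is 10323 of the 14187. Of the 24 scaffold genes 22 were called the same way in both arms, as were 13 of 13 fast-fibre genes, 15 of 15 heart factors and 55 of the 68 nuclear respiratory subunits. The tissue difference itself was tested against training by an interaction term: 0 of 14383 genes passed by edgeR and 0 by DESeq2, with 523 at an unadjusted p under 0.05.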

How the data were processed

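RNA of left ventricle and red gastrocnemius was measured as counts per gene. The authors deposited 1 table of raw counts per tissue, joined here by gene ID (30560 genes). Per the submitters' processing notes the tools were FastQC 0.74, cutadapt 4.6, STAR 2.7.11a and HTSeq, with genome build mRatBN7.2; the strand setting, annotation release and handling of shared reads are not given in the sources used here. Rows of mitochondrial rRNA stayed in the library sizes.

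The 7 sedentary rats with both tissues were compared with edgeR 4.0.16 in R 4.3.3: TMM scaling, filterByExpr, a quasi-likelihood fit with rat as a block and Benjamini-Hochberg adjustment over all genes tested, threshold 0.05. Pairing comes from the rat: same-numbered libraries are from 1 animal, although their deviations from the group means hardly correlated (r -0.147 to 0.157, median 0.047). Heart and muscle libraries of different rats gave -0.203 to 0.206 (median -0.0086). The muscle library of the same rat was the best match for 3 of 7 heart libraries. Library measures used the exact sign-flip test over 7 pairs. On simulated data 99 of 100 genes changed by log2 fold 1 and 100 of 100 changed by 2 were recovered, with 6 false calls among 14288 genes. Only those genes were changed there, in equal number up and down, whereas 77.8% of genes were called in the data. The simulation therefore cannot tell how many calls are false in this contrast. No 2 libraries of a tissue agreed within counting noise. A share of 1 library has a 95% Wilson interval at most 0.0399 points wide; intervals and the floor of 3 counts cover counting error only.

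The genes named are those with a mean of at least 5 CPM in a tissue that were the 8 largest calls in each direction without overlap, up to 2 largest calls in each direction and the highest uncalled member of each of 35 lists, and both members of 24 pairs (177 genes, a few others not being reported here), with all clock genes allowed and the mitochondrial mRNAs as a group. Alb, Myh7, Myh2, Mt-nd2, Mir206 and Mir208b are named outside that rule as markers or members of a group. The libraries, lists and pairs were chosen with earlier results of these data known. Symbols were matched to RefSeq (GRCr8) for 169 of the 177, and 72 overlap another RefSeq gene there. Some listed genes, such as Atp2a1, Pln and Myh1, were not matched by symbol and are not analysed here. Alternatives were other scalings, filters, DESeq2 1.42.0, thinning, no block, leaving out each rat, and 2 chosen after seeing the data: protein-coding nuclear genes only, and rats 19, 20 and 31 left out together.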

Additional observations from a re-analysis of the deposited data

Results flagged for a closer look

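Within each tissue the 7 values of a gene were searched for a single library far from the others (its gap to the nearest value over the whole range above Dixon's 95% limit of 0.568). Of 362 groups of 7, 44 held such a library. The limit is set so that about 1 in 20 groups of independent, normally distributed values would pass it. The groups here share the same libraries and some rest on a few counts, so 44 cannot be set against that share. In heart there were 28 and in muscle 16, and rats 16, 19, 20 and 29 account for 39 of them. The cause was not tested for any of them.

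Rat 29 stood apart in heart for clock genes, in CPM: Clock at 60.4, Tef at 81.4, Per2 at 28.9, Bhlhe41 at 7.95 and Hlf at 3.07, the first as the lowest and the rest as the highest value. Its heart was also lowest for Yy1 (9.45 CPM) and highest for Lrrc10 (59.2 CPM) and Mt-nd4l (34.3 CPM). Its muscle was highest for Per2 (39.7 CPM), Esrrb (3.22 CPM), Myl7 (0.134 CPM) and Myot (1257 CPM).

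Rat 16 was highest in heart for Cacna1c (223 CPM), Per1 (22.4 CPM), Esrrb (11.6 CPM), Fbxo30 (35 CPM), Abcc9 (249 CPM) and Kcnc1 (0.396 CPM). Its muscle was highest for Fbxo32 (149 CPM), Per1 (37 CPM) and Ucp3 (149.8 CPM).

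Rat 19's heart was highest for the atrial genes Nppa (299 CPM), Sln (4.52 CPM), Myl7 (183 CPM) and Myl4 (59.8 CPM), and for Lrp4 (34.6 CPM) and Mybpc1 (1.26 CPM). Its muscle was lowest for Tnnc2 (4143 CPM) and highest for Ak4 (2.11 CPM) and Adra1b (0.141 CPM).

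Rat 20's heart was highest for the liver genes Ttr (52.1 CPM) and Tf (412 CPM), for Myog (0.0114 CPM) and Mrln (0.0227 CPM), and for the number of genes with at least 10 counts (13918), and lowest for Tfb2m (27.3 CPM). Its muscle was highest for Eno1 (80.2 CPM), Chrm2 (0.218 CPM) and Mrln (17.4 CPM).

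Of the other rats, rat 30 was highest for Rbm20 in muscle (106 CPM) and Myh4 in heart (0.0433 CPM), rat 31 for Myl1 in heart (2.54 CPM) and Kcnj8 in muscle (27 CPM), and rat 32 for Nppa in muscle (0.106 CPM). The heart values of Myh4, Myog and Mrln and the muscle values of Nppa, Myl7, Chrm2 and Adra1b rest on a few counts.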

How the results depend on the processing

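The number of genes called in sedentary rats stayed within 1.5 times of 11174 under all alternatives but 1: a filter of 10 CPM in all libraries of a tissue tested 7106 genes and called 5999 (in trained rats 7146 and 6036), fewer genes being tested. Without the block for the rat 11301 genes were called, 11050 of them also called with the pairing and in the same direction, and leaving out 1 rat gave 10760 to 11064 (10872 to 11137 in trained rats). The interaction stayed at 0 under every setting run. Counting genes with at least 3 in place of 10 counts lowered the difference to 98.1 genes (exact sign-flip p = 0.422). Fold changes of 177 named genes kept direction and side of the threshold in 3226 cases; 35 passed no longer, 36 passed newly, and 31, over 13 genes, changed sign, all given as log2: with library totals, Tfb2m 0.11, Fbxo32 0.22, Tmod1 0.14, Celf1 0.16, Tjp1 0.21, Grk5 0.16, Npr1 0.18, Lrp4 0.21, Mt-co3 0.15. With rats 19, 20 and 31 left out, Tfb2m 0.0349, Plin4 -0.0219. With no low-count filter, Fbxo32 0.018, Tjp1 0.00466, Lrp4 0.0029. With rats 17 to 32 only, Fbxo32 0.0411. With RLE factors, Cd163 -0.0189. With DESeq2, Cd163 -0.00848. With mitochondrial genes left out, Cd163 -0.00112. With no block for the rat, Cd163 -0.00727, Myl4 0.35. With all 15 muscle libraries without pairing, Cd163 -0.27, Tjp1 0.0126, Lrp4 0.00182, Myl4 0.41. Leaving out 1 rat changed the sign of Fbxo32 -0.0726 to 0.0495, Cd163 -0.12 to 0.20, Tef -0.0554 to 0.11 (ranges over 7 rats). None of the 13 passed the test with pairing and TMM over all 7 rats, and the cause was not tested. Depth limits genes near 3 counts per library.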

Other observations

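Genes outside the clock list also varied between rats in step in both tissues. With a range of at least 2-fold in each tissue and at least 1 CPM in every library, 164 genes remained, 154 of them with a symbol, and their median r between heart and muscle was 0.13. Of the 25 highest, 4 were clock genes: Npas2 was the highest, Per2 and Per1 were among the first 4, and Nr1d1 (r = 0.74, but 0.15 without rat 29) was lower in the order. The 6 highest of the others were Lmod1, a smooth muscle leiomodin (r = 0.93), Nipsnap1, a mitochondrial protein (r = 0.91), Col5a3, a collagen chain (r = 0.89, but -0.04 without rat 29), Fbn2, fibrillin 2 (r = 0.89), Apold1, an endothelial early-response gene (r = 0.85), and Timp4, a metalloproteinase inhibitor (r = 0.84). Arrdc2 gave 0.79 and Cish, a cytokine-induced inhibitor, 0.70. These genes were chosen after their values were seen, over 7 rats, and the correlations are a description with no test.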
